A study of Mus musculus with 16 samples.

Results

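The genes described here are 10 immediate early transcription factors, the AP-1 factors Fos, Fosb, Fosl2, Jun, Junb, Jund and Atf3 and the zinc finger factors Egr1, Egr2 and Egr3. They were chosen by gene symbol from the deposited table, and all 10 were found among 24562 genes. Where a gene had several RefSeq rows, the row of highest total count over the 16 libraries was kept. Rows were thus selected on their total, the measured value that entered the choice. It was 1087 for the kept row of Fosb against 1054 for its other row, 751 against 695 for Egr2 and 34093 against 34061 for Jund. The kept row of Egr3 and a second row both held 1561 counts, and its remaining row held 1524. Fos, Fosl2, Jun, Junb, Egr1 and Atf3 had 1 row each.

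The libraries came from ApoE-/- mice, which are prone to atherosclerosis, so both genotypes lack apolipoprotein E. Animals labelled wt are called wild type here, and those labelled cre belong to the B cell-specific CD40-deficient genotype of the series. The gene that drives the recombinase, the age of the animals and any treatment do not appear in the labels used here. RNA was sequenced from peritoneal B1b cells, an innate-like B cell subset sorted as B220 low, IgM high and CD5 low (3 wild-type and 3 cre libraries), and from whole aortas frozen at collection (5 wild-type and 5 cre libraries). Whether each library is its own animal is not stated in the labels, and p-values therefore cover only the spread of these libraries, which may be technical.

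Immediate early factors are switched on within minutes of a stimulus by kinase cascades that act on proteins already present in the cell. FOS proteins bind DNA only as partners of JUN proteins, and each such pair is an AP-1 factor. ATF3 pairs with JUN proteins too and is induced by stress. EGR factors bind GC-rich sites through zinc fingers. In B cells, antigen receptor and CD40 signals raise many of these genes, and so can the handling of cells during isolation.

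Libraries held 6815829 to 9911226 counts in B1b cells and 1645926 to 7300894 in aortas, after 1 row per gene was kept. Values are CPM, the counts of a gene set against the depth of its library, scaled by TMM, a normalization that balances libraries of different make-up. Scaling was within each tissue unless stated. The labelled cell types were checked against marker genes. The summed level of 10 B cell genes was 8205 to 9433 CPM in B1b libraries and 132.3 to 294.7 CPM in aortas. That of 8 smooth muscle genes was 15.5 to 24.7 CPM and 9099 to 23980 CPM.

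In B1b cells Fosb, an AP-1 factor of the FOS family, and Egr3, a zinc finger factor of lymphocyte activation, were lower in cre than in wild type. The other 8 factors did not pass the test. These 2 genes were known to be called when the family was put together, so their calls describe these libraries and are no independent support. Of the 10 factors 2 fell and 0 rose (edgeR quasi-likelihood test, Benjamini-Hochberg adjusted p under 0.05 over all genes), where 0.222% of the 11732 genes tested fell, 0.486% rose and 0.707% did either. At an unadjusted p under 0.05 there were 4 (13.3% of all genes), the other two being Fos, lower, and Jun, higher. DESeq2 called the same 2 genes, and limma-voom called Fosb alone. In bulk RNA, fewer cells of a type and less RNA per cell cannot be told apart.

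**Figure D1:**
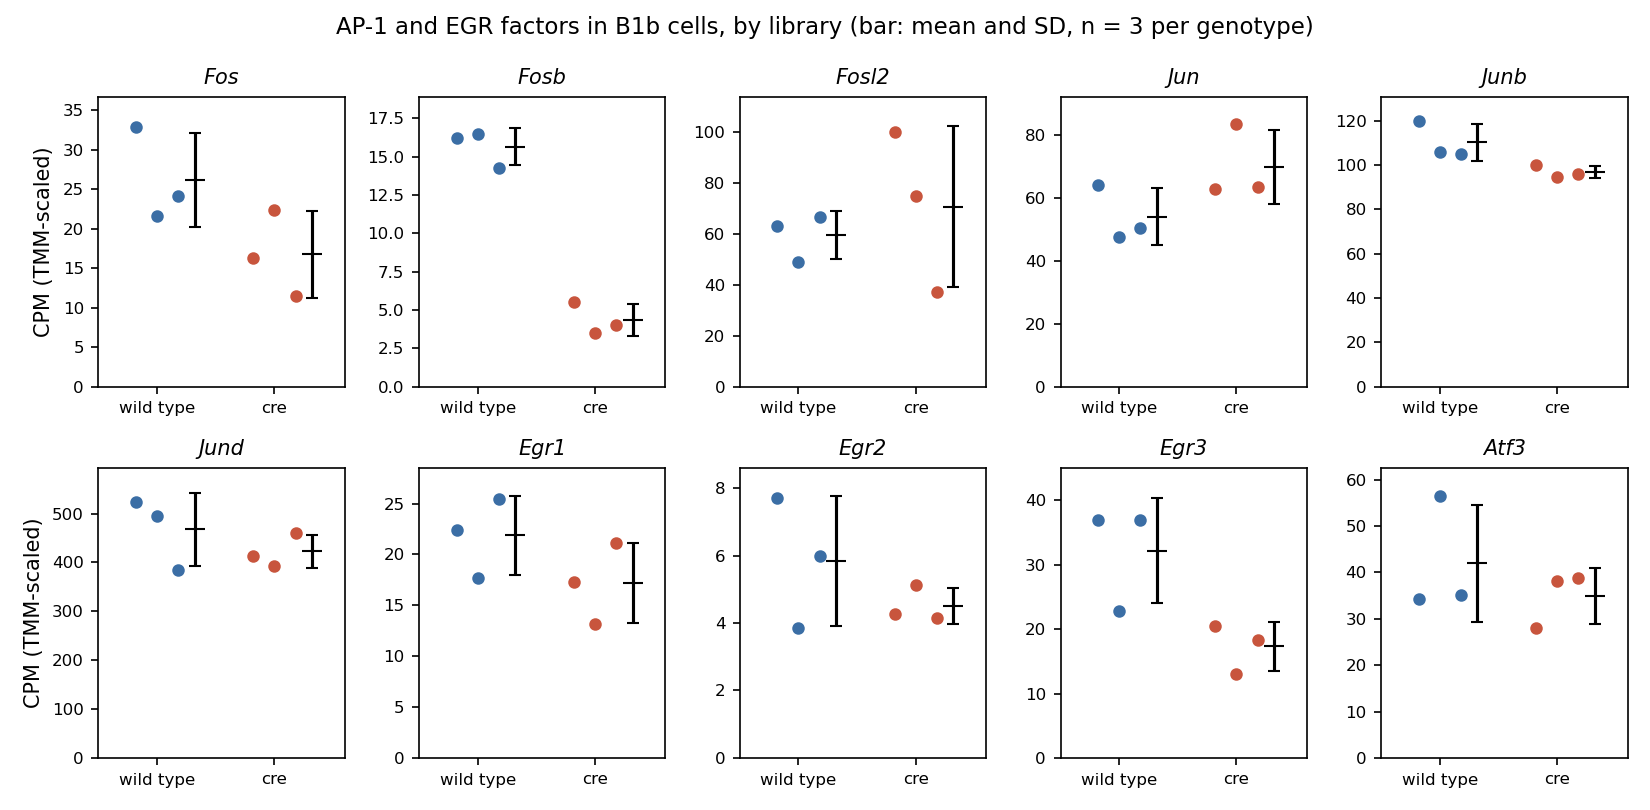
CPM of each factor in the 3 wild-type (blue) and 3 cre (red) B1b libraries, with mean and SD as bars beside the points. Fosb lies between 14.3 and 16.4 CPM in wild type and between 3.52 and 5.49 CPM in cre, and Egr3 and Junb are the other genes whose groups do not overlap.

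Among the 3 FOS family genes Fosb was the only one whose groups did not overlap. Fosb stood at 16.2, 16.4 and 14.3 CPM in wild-type replicates 1, 2 and 3, and at 5.49, 3.52 and 4.04 CPM in cre. Every cre library was far below every wild-type library, and the wild-type values lay close together. The fitted log2 fold change was -1.84 (SE 0.25, 95% interval from -2.35 to -1.33, edgeR adjusted p = 0.000588), a ratio of 0.280, and it ranked 7 of all genes by p. These CPM rest on 120, 128 and 131 counts in wild type and on 45, 24 and 40 in cre. The other RefSeq row of Fosb gave 110, 125 and 125 counts against 44, 24 and 40. Leaving out any of the 6 libraries gave values from -2.03 to -1.72 (edgeR adjusted p up to 0.00512).

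Fos, the founding member of the family and a product of the same kind of induction, stood at 33.0, 21.6 and 24.2 CPM in wild type and at 16.4, 22.4 and 11.5 CPM in cre. Cre replicate 2 lay above wild-type replicate 2, so the groups overlapped. Its fitted difference was -0.66 on the log2 scale (SE 0.22, edgeR adjusted p = 0.191), and it passed only where the filter on low counts was dropped (edgeR adjusted p = 0.0250). Fosl2, which encodes FRA-2, a FOS protein without the strong activation domain of FOS, stood at 63.4, 49.0 and 66.5 CPM in wild type. Its cre libraries were spread more widely, at 100.04, 74.9 and 37.1 CPM, and surrounded the wild-type range. The log2 fold change of 0.24 (95% interval from -0.89 to 1.37) turned to -0.10 without cre replicate 1 (edgeR adjusted p = 0.949).

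Fosb lies on the minus strand of chromosome 7, at 19302696 to 19310118 in mm10, and Fos on chromosome 12, at 85473890 to 85477274. Their upstream sequences are shown because these close relatives separated in B1b cells, Fosb without overlap and Fos with it. RefSeq promoter sequences of GRCm38.p6, the assembly behind mm10, were available for 8 of the 10 genes. The 250 bases before the start site are printed 5′ to 3′ on the strand of the gene, chr7:19310046-19310295 on the minus strand for Fosb and chr12:85473640-85473889 on the plus strand for Fos. Capitals mark TGACG, the core of the cAMP response element, in either orientation, the EGR element GCGGGGGCG or GCGTGGGCG and, in sense orientation only, the TATA box TATAAA.
Fosb: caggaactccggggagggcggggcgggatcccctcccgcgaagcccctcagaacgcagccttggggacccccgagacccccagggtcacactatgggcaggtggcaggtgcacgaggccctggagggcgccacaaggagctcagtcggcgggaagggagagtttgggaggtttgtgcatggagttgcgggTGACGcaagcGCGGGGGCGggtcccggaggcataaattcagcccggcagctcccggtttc
Fos: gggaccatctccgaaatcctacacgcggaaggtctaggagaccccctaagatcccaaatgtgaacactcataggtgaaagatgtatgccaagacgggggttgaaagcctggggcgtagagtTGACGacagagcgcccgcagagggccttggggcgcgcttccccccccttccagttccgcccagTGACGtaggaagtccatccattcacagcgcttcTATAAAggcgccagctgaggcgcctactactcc
Counted back from the start site, Fosb held TGACG at -60 to -56 and the EGR element at -50 to -42. The Fosb start site used lies inside the gene span given above, and both matches fall where the window overlaps that span. Fos held TGACG at -129 to -125 and at -66 to -62, and TATAAA at -33 to -28. Over all 32851 promoter windows of this length, 17.8% held TGACG on either strand, 3.06% held an EGR element on either strand and 7.59% held TATAAA. The windows of Fosb and Fos held no AP-1 element TGACTCA on either strand and no CArG box, the binding site of serum response factor, which 4.46% and 1.47% of all windows held. Bases further than 250 from the start site were not searched, so an element there would not be seen. A match is a description of letters and does not show that a factor binds.

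None of the 3 JUN family genes, which encode the obligate partners of FOS proteins, passed the test. Jun stood at 64.3, 47.5 and 50.4 CPM in wild type and at 63.0, 83.5 and 63.4 CPM in cre. Wild-type replicate 1 lay above 2 of the cre libraries, so the groups overlapped in spite of a higher cre mean. Its fitted difference was 0.37 on the log2 scale (SE 0.13, 95% interval from 0.10 to 0.64, edgeR adjusted p = 0.219), opposite in sign to Fos and Fosb, and it passed only where the filter on low counts was dropped (edgeR adjusted p = 0.0345). Junb, a JUN protein that can restrain JUN, stood at 119.9, 105.7 and 104.9 CPM in wild type and at 99.8, 94.7 and 96.2 CPM in cre. All 3 cre libraries were below all 3 wild-type libraries, and the step was small, at -0.19 (SE 0.09, edgeR adjusted p = 0.397). Of all genes tested, 8.66% had cre libraries wholly below wild type, as 3 of these 10 did (Fosb, Egr3 and Junb), and 9.71% had them wholly above, as 0 did. Jund, the JUN gene that is expressed steadily in resting cells, ran from 383.7 to 524.1 CPM in wild type and from 392.9 to 460.7 CPM in cre, a difference of -0.15 on the log2 scale (edgeR adjusted p = 0.581).

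Among the EGR factors, Egr3 stood at 36.9, 22.7 and 36.9 CPM in wild type and at 20.5, 13.0 and 18.4 CPM in cre. The groups did not overlap, though wild-type replicate 2 came within a few CPM of the highest cre library. Egr3 fell by 0.89 on the log2 scale (SE 0.20, 95% interval from -1.31 to -0.47, edgeR adjusted p = 0.0482), a ratio of 0.540. This call was marginal. With each of the 6 libraries left out in turn it held once, in the fit without wild-type replicate 2 (edgeR adjusted p = 0.00969), and the other 5 gave 0.0670 to 0.210. It also ended with the Egr3 row of lowest total (edgeR adjusted p = 0.0569), with counts summed over rows (0.183), without robust estimation (0.0539) and by limma-voom (0.0800), while DESeq2 kept it (0.00859). The log2 fold change lay between -1.08 and -0.73 in all of these fits.

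Egr1, the most widely induced EGR gene, stood at 22.4, 17.7 and 25.5 CPM in wild type and at 17.3, 13.2 and 21.1 CPM in cre. Its groups overlapped and its log2 fold change was -0.34 (edgeR adjusted p = 0.472). Egr2, which acts with EGR3 to restrain lymphocyte activation, ran in CPM from 3.85 to 7.70 in wild type and from 4.14 to 5.13 in cre, from 30 to 57 counts a library (-0.38, edgeR adjusted p = 0.707). Atf3 stood at 34.3, 56.5 and 35.2 CPM in wild type and at 28.1, 38.1 and 38.8 CPM in cre. Its log2 fold change of -0.26 (edgeR adjusted p = 0.600) became 0.02 without wild-type replicate 2, the library at 56.5 CPM.

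Over the 10 factors the median log2 fold change was -0.30, against -0.005 over all genes tested, and 8 of 10 were below 0, against 50.9% of all genes. Jun and Fosl2 were the 2 above 0. These values include Fosb and Egr3, known to be called when the family was put together, and are no independent support. The factors did not vary as 1 unit between libraries of a genotype. With the genotype means removed, the 45 pairs of factors had correlations of log2 CPM from -0.87 to 0.89 over the 6 B1b libraries, with a median of 0.12. The highest was between Fos and Jun (r = 0.89) and the lowest between Egr3 and Atf3 (r = -0.87). Fosb and Fos had r = -0.18, and Egr1 and Egr3 had r = 0.84. These correlations share libraries and depth and are given as a description.

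**Figure D2:**
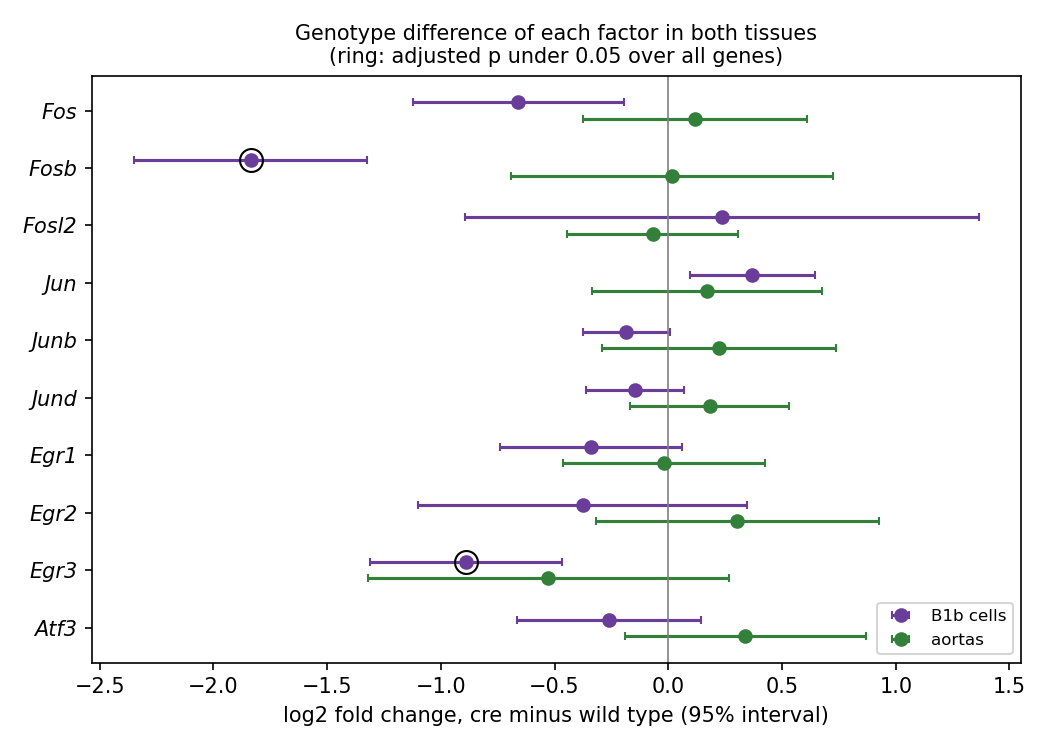
Log2 fold change of each factor, cre minus wild type, with its 95% interval in B1b cells (purple, 3 against 3 libraries) and aortas (green, 5 against 5). Rings mark Fosb at -1.84 and Egr3 at -0.89 in B1b cells, the calls at an adjusted p under 0.05, and every aortic interval includes 0.

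Within the FOS family the make-up of the transcripts shifted in B1b cells. Levels were divided by transcript length here, the longest GENCODE transcript matched to a gene, and scaled over all 16 libraries. For Egr3 this length was 3940 bases, while its kept row matched a transcript of 1509 bases. The shorter length would raise the Egr3 level per kb and its share of the EGR family, here and below. Family sums hold only the factors described here, so Fosl1 and Egr4 are left out. Fosb held 16.3% ± 2.92 of the summed FOS family level in wild type and 6.24% ± 2.37 in cre (SD, n = 3 each), with no overlap between libraries. The share of Fosl2 was 35.6% ± 3.93 and 52.9% ± 8.40, and that of Fos 48.1% ± 4.12 and 40.9% ± 8.01 (SD, n = 3 each). Shares of a family move together, since they sum to the whole. In the JUN family Jund held 78.1% ± 2.26 and 77.0% ± 2.05, and in the EGR family Egr3 held 46.8% ± 1.90 and 37.8% ± 3.80 (SD, n = 3 each). The shares of Fosl2, Jun, Egr1 and Egr3 also did not overlap between the B1b genotypes, while those of Fos, Junb, Jund and Egr2 did. These shares come from the same libraries as the fold changes and were not tested.

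**Figure D3:**
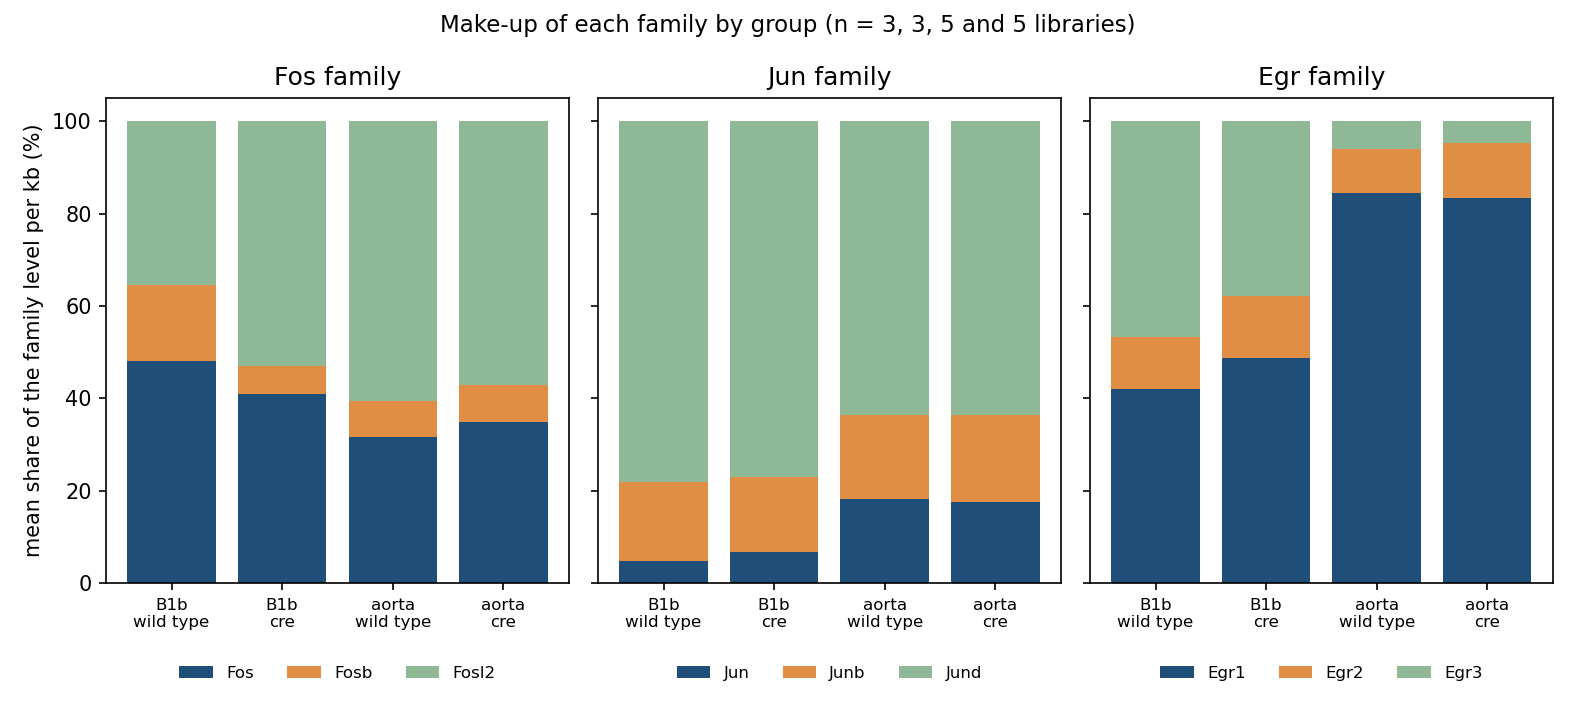
Mean share of each member in the summed level per kb of its family, in percent, by group (3, 3, 5 and 5 libraries). Fosb takes 16.3% of the FOS family in wild-type and 6.24% in cre B1b cells, and Egr1 takes 84.5% of the EGR family in wild-type aortas against 42.0% in wild-type B1b cells.

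The other genes of the immediate early response were read from lists. Of 38 further immediate early genes, 33 were tested in B1b cells, of which 0 rose, 4 fell and 29 did not pass. Their median log2 fold change was -0.20, with 26 below 0. Over all genes tested, 0.222% fell, 0.486% rose and 50.9% were below 0, with a median of -0.005. The 4 were Cd69, which keeps activated lymphocytes in tissue, Cd83, an activation antigen of B cells and dendritic cells, Gadd45b, a stress sensor that acts on MAP kinases, and Ppp1r15a, a phosphatase regulator of the stress response, with log2 fold changes of -0.75, -0.65, -0.77 and -0.69. DESeq2 called 5, with Klf6 added at an edgeR log2 fold change of -0.33 (edgeR adjusted p = 0.0836), a gene named after its value was seen. Limma-voom called 3, without Gadd45b. The level of Cd69 was 130.0 ± 5.59 CPM in wild type, against 77.0 ± 18.4 CPM in cre (SD, n = 3 each). These genes had been reported from the same libraries before and are not independent of Fosb and Egr3.

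Partners and upstream carriers did not pass. Of all genes tested in B1b cells, 0.707% were called and 13.3% had an unadjusted p under 0.05 (edgeR). Of 9 tested other AP-1 and bZIP partners, 0 were called by edgeR, DESeq2 or limma-voom and 1 had an unadjusted p under 0.05, Creb1, the cAMP-responsive activator, at 0.19. Nab1 and Nab2, corepressors that bind EGR proteins, stood at 0.19 and -0.33, and Nab2 is itself a target of EGR factors (edgeR adjusted p = 0.397 and 0.390). Of 17 upstream signal carriers 0 were called by any of these tools. An unadjusted p under 0.05 was found for 3, a count near the share over all genes. These were Map2k2, a kinase that activates ERK, at -0.31, Mapk14, the p38 kinase, at -0.22, and Srf, the serum response factor that acts on Fos and Egr genes, at -0.24.

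Markers of handling stress and of another cell type were read beside these results. Over all genes tested in B1b cells, 0.707% were called by edgeR, 13.3% had an unadjusted p under 0.05 and 50.9% were below 0. Of 10 tested heat shock and dissociation stress genes 0 were called by edgeR and 2 had an unadjusted p under 0.05, while DESeq2 called 1, Hsp90aa1 (log2 fold change 0.40), and limma-voom called 0. Their median was 0.07, with 7 above 0. The summed level of the 12 listed ran from 3346 to 3784 CPM in wild type and from 3275 to 4060 CPM in cre, so the genotypes overlapped. The 17 macrophage and monocyte genes summed to 303.8, 400.6 and 488.1 CPM in wild type and to 571.7, 648.7 and 587.1 CPM in cre, without overlap. All 17 had counts in both genotypes, and of 15 tested 13 were above 0, with a median log2 fold change of 0.77. By edgeR 1 rose, Csf1r, the growth factor receptor of macrophages, and 14 did not pass. DESeq2 called Csf1r and Mrc1, and limma-voom called Ccr2 and Lyz2 in its place, genes named after their values were seen. Their part in the differences of Fosb and Egr3 was not tested.

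By Pearson correlation of log2 CPM over the 6 B1b libraries, the genes most like Fosb among 9742 compared were Phf1, Polrmt, B3gat3, Arhgap45 and Psmg3, with r from 0.982 to 0.997. Phf1, a Polycomb-associated protein, was first and stood at 130.1 ± 3.18 CPM in wild type and at 96.8 ± 4.73 CPM in cre (SD, n = 3 each). No factor of the family was among these 5. With 6 libraries in 2 genotypes, genes that separate the genotypes evenly come out high, and the list is a description.

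In aortas no factor differed between the genotypes beyond the spread of the libraries. Of the 10 factors 0 were called by edgeR, DESeq2 or limma-voom with or without quality weights, and 0 had an unadjusted p under 0.05 by any of them. Over all 13364 genes tested 0.015% were called by edgeR and 12.6% had an unadjusted p under 0.05. The groups of all 10 factors overlapped, where 2.92% of all genes had groups apart.

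**Figure D4:**
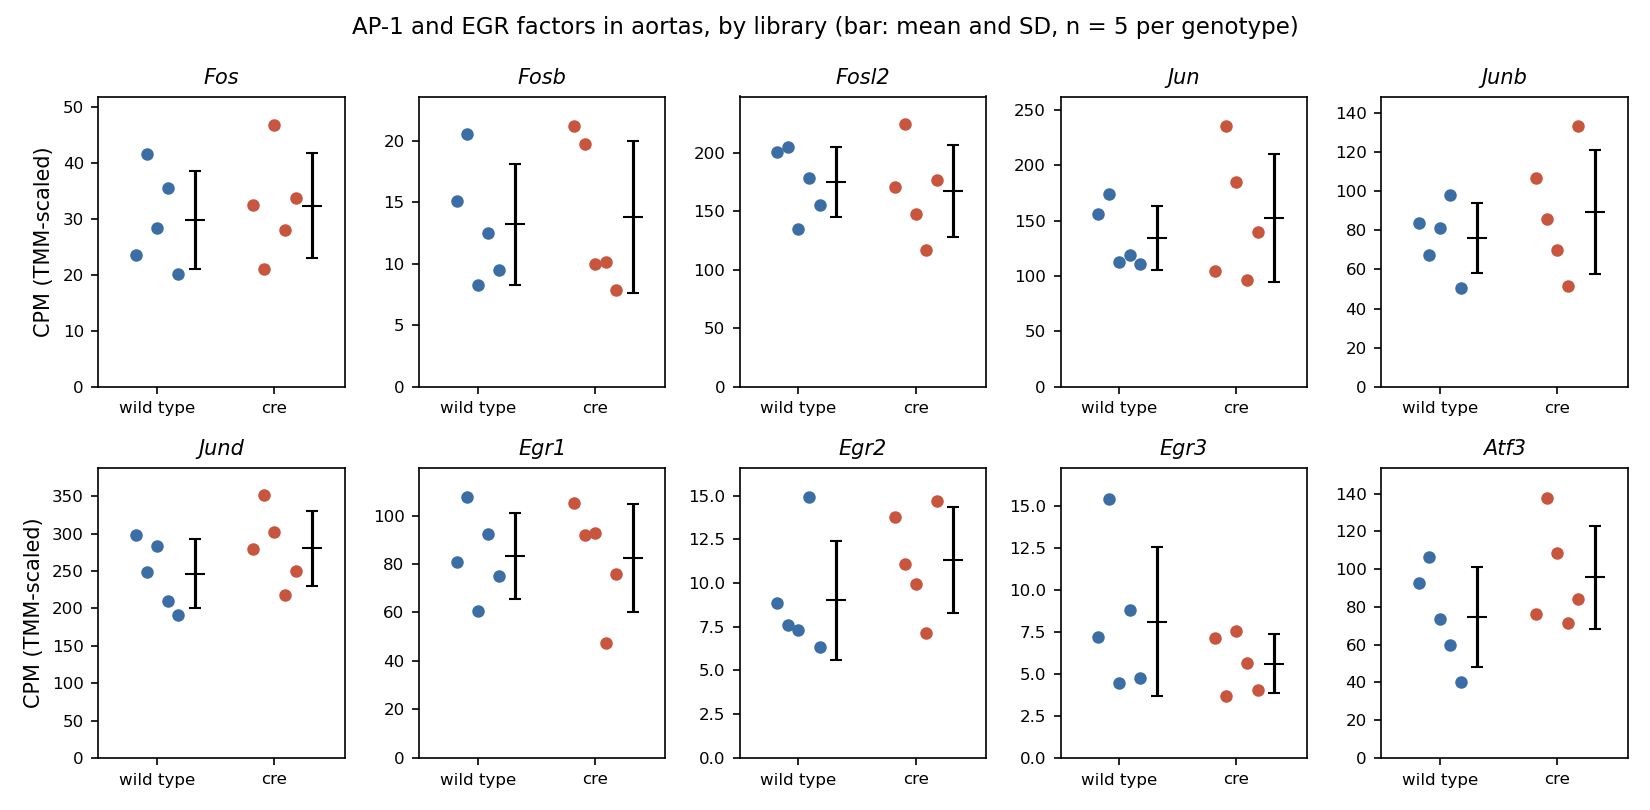
CPM of each factor in the 5 wild-type (blue) and 5 cre (red) aortas, with mean and SD as bars beside the points. The groups overlap for all 10 factors, and Fosb runs from 8.27 to 20.6 CPM in wild type and from 7.89 to 21.2 CPM in cre.

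Fosb stood at 15.1, 20.6, 8.27, 12.5 and 9.52 CPM in wild-type replicates 1 to 5, and at 21.2, 19.7, 9.96, 10.1 and 7.89 CPM in cre. Both groups covered nearly the same range. The fitted difference was 0.02 on the log2 scale (SE 0.33, 95% interval from -0.69 to 0.72, edgeR adjusted p = 0.988). The B1b estimate lay outside this interval but has its own error. The direct test of the tissue difference, given below, did not pass (edgeR adjusted p = 0.190). Egr3 stood at 7.20, 15.4, 4.45, 8.80 and 4.76 CPM in wild type and at 7.14, 3.70, 7.59, 5.68 and 4.02 CPM in cre. Wild-type replicate 2 was the highest aorta for Egr3 and for Fos within its group. The log2 fold change of Egr3 was -0.53 (95% interval from -1.32 to 0.27, edgeR adjusted p = 0.575), and -0.17 without wild-type replicate 2. Some aortic values rest on few counts, with 6 for Egr3 in cre replicate 2, 9 in wild-type replicate 5 and 12 for Egr2 in wild-type replicate 5.

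The remaining factors spanned similar ranges in both genotypes of aorta. Fos ran from 20.1 to 41.6 CPM in wild type and from 21.0 to 46.7 CPM in cre, with a log2 fold change of 0.12. Jun ran from 110.5 to 174.0 CPM and from 96.7 to 235.5 CPM (0.17, and -0.04 without cre replicate 2, the highest library). Fosl2 stood at -0.07, Junb at 0.22, Jund at 0.18 and Egr1 at -0.02. Egr2, which Schwann cells also use to build myelin, stood at 0.30, and Atf3 at 0.34 (edgeR adjusted p = 0.686 and 0.592). The median over the 10 factors was 0.14, against 0.002 over all genes, and 3 of 10 were below 0, against 49.8% of all genes.

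Aortas that were high for a factor tended to be high for others. With the genotype means removed, 40 of the 45 pairs had a correlation above 0 over the 10 aortas, with a median of 0.37 and a range from -0.09 to 0.88. Fos and Egr3 had r = 0.75, and Fosb had r = 0.69 with Fosl2 and 0.68 with Egr1. These pairs share libraries and depth and were not compared with pairs of other genes, so their correlations are a description. The genes most like Fos over the 10 aortas, of 12151 compared, were Fer, a tyrosine kinase, Cdk4, a G1 cyclin-dependent kinase, Thg1l, Zfp189 and Hscb, with r from 0.87 to 0.91. None of the other 9 factors was among these 5.

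Over all genes tested in aortas, 0.015% were called by edgeR, 12.6% had an unadjusted p under 0.05 and 49.8% were below 0. Of the 37 further immediate early genes tested there 0 were called by edgeR, DESeq2 or limma-voom. An unadjusted p under 0.05 was found for 3 (edgeR), no more than the share over all genes. Those 3 were Dusp2, a phosphatase of MAP kinases, at -1.20, Ier3 at 0.42 and Nr4a1, an orphan nuclear receptor, at 0.74. Nr4a1 stood at 48.7 ± 15.9 CPM in wild type and at 82.4 ± 37.2 CPM in cre (SD, n = 5 each). All 12 heat shock genes were above 0, with a median of 0.22 and 0 called by any tool (edgeR, 2 at an unadjusted p under 0.05). Their summed level ran from 3134 to 3805 CPM in wild type and from 3663 to 4875 CPM in cre. Markers of other tissues were read beside these values, and 0 genes of the heart muscle, nerve and mesothelial lists were called by edgeR or limma-voom, with 5, 5 and 4 at an unadjusted p under 0.05 (edgeR). DESeq2 called 4, 4 and 2 of them, and limma-voom with quality weights 3, 0 and 0. The 10 heart muscle genes, all detected in both genotypes, summed to 710.4 to 3143 CPM in wild type and to 844.5 to 7396 CPM in cre. The 11 nerve and Schwann cell genes, likewise all detected, summed to 388.7 to 530.5 CPM in wild type, and in cre to 1766 CPM in replicate 4 and to 310.8 to 639.4 CPM in the other libraries. The 5 mesothelial genes, from the lining of body cavities, summed to 27.5 to 53.95 CPM in wild type and to 60.5 to 149.4 CPM in cre, without overlap, and all 5 were above 0 on the log2 scale. Of 8 fibroblast genes 7 were below 0 and 1 above, with a median log2 fold change of -0.45. By edgeR 0 of them were called and 5 had an unadjusted p under 0.05. Of 8 tested skeletal muscle genes all were above 0, with a median of 2.88. By edgeR 0 of these were called and 5 had an unadjusted p under 0.05, while DESeq2 called 2. The part of these lists in the aortic values was not tested.

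The difference between tissues in the genotype effect was tested with an interaction term over all 16 libraries. Of the 10 factors 0 were called by edgeR, against 0.0199% of 15091 genes, and 1 had an unadjusted p under 0.05, against 11.1% of all genes. That was Fosb, whose effect in B1b cells minus that in aortas was -1.86 on the log2 scale (SE 0.49, 95% interval from -2.87 to -0.84, unadjusted p = 0.0012, edgeR adjusted p = 0.190). The corresponding difference was -0.78 for Fos and -0.37 for Egr3 (edgeR adjusted p = 0.453 and 0.819). A difference between the tissues in the Fosb effect was therefore not shown after adjustment over all genes. The 10 B cell genes summed to 132.3 to 215.3 CPM in wild-type aortas and to 182.0 to 294.7 CPM in cre aortas, low beside the B1b libraries, and their part in this was not tested.

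Levels of the factors were also compared between the tissues. In wild type, 7 of 10 factors differed between B1b cells and aortas (edgeR adjusted p under 0.05), 3 higher and 4 lower in B1b cells. Of all 15091 genes 72.1% differed, 33.4% higher and 38.7% lower in B1b cells, so this share is near the background. Libraries of 6 factors did not overlap between the tissues, as for 70.4% of all genes. Sorted cells and frozen tissue were also handled differently, and tissue and handling cannot be told apart. Under the other scaling, size factors as DESeq2 computes them, the median of all genes in this comparison moved by -0.16.

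Per kb of transcript and on the scale of all 16 libraries, Jund led in all 4 groups, at 282.2 ± 41.5 CPM per kb in wild-type B1b cells (SD, n = 3) and 146.7 ± 26.7 CPM per kb in wild-type aortas (SD, n = 5). No library of another factor reached it. The place of Egr3 in these orders rests on a length of 3940 bases, and the 1509 bases of its kept row would raise it. In wild-type B1b cells Junb followed at 61.3 ± 3.90, then Atf3, Jun, Fos, Fosl2, Egr3 and Egr1 from 21.3 down to 7.26 CPM per kb, neighbours whose libraries overlapped. Fosb at 4.17 ± 0.282 and Egr2 at 1.98 ± 0.637 CPM per kb came last, each apart from its neighbour above. In cre B1b cells Fosb was the lowest of all, at 1.16 ± 0.296 CPM per kb, and overlapped with Egr2 at 1.52 ± 0.150 (SD, n = 3 each). In wild-type aortas Jun, Junb, Atf3, Egr1 and Fosl2 formed an overlapping series from 41.9 to 26.6 CPM per kb, Fos stood apart at 14.1 ± 4.09, and Fosb, Egr2 and Egr3 overlapped at 3.46, 3.02 and 2.05 CPM per kb.

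**Figure D5:**
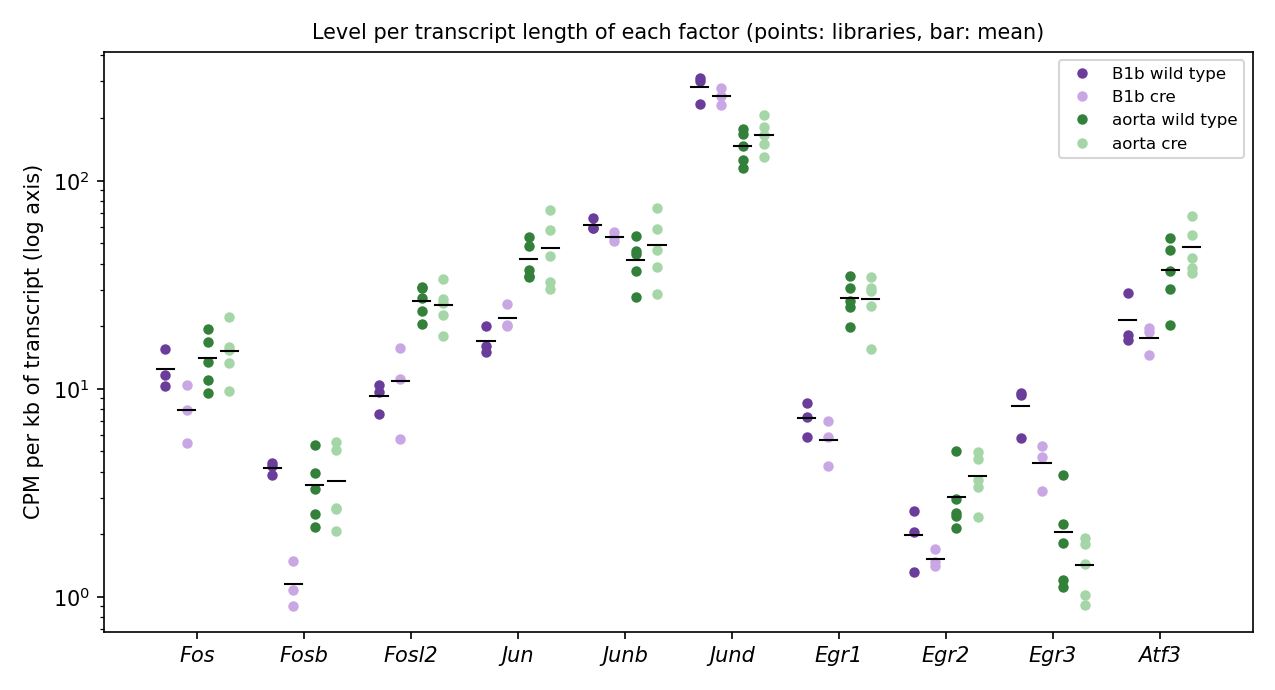
CPM per kb of transcript, on a log axis and on the scale of all 16 libraries, of each factor in the 4 groups, with points for libraries and bars for means. Jund is highest in every group, Egr1 lies at 7.26 CPM per kb in wild-type B1b cells and 27.2 in wild-type aortas, and Fosb is lowest in cre B1b cells at 1.16.

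Egr1 and Egr3 had the largest fitted differences of the 10 factors between the tissues, in opposite directions. Egr1 ran from 5.90 to 8.56 CPM per kb in wild-type B1b cells, below the 19.8 to 35.0 of wild-type aortas, a log2 difference of -1.91 (SE 0.25; edgeR adjusted p = 1.46e-06). Egr3 went the other way, running from 5.83 to 9.56 CPM per kb in B1b cells, above the 1.12 to 3.86 of aortas, at 1.98 (SE 0.33, edgeR adjusted p = 2.71e-05). As a result Egr1 held 42.0% ± 3.55 of the EGR family level in wild-type B1b cells (SD, n = 3) and 84.5% ± 2.61 in wild-type aortas (SD, n = 5), and Egr3 held 46.8% ± 1.90 and 6.04% ± 1.96.

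Jun and Fosl2 were lower in B1b cells, at -1.30 and -1.53 (edgeR adjusted p = 0.000147 and 4.53e-05), and Jund was higher, at 0.94 (edgeR adjusted p = 4.89e-05). Junb at 0.54 passed narrowly (edgeR adjusted p = 0.0438) and lost its call under size factors as DESeq2 computes them (0.38, edgeR adjusted p = 0.163), without the filter on low counts and with counts summed over rows. Of the 16 fits with a library left out, 11 lost it too, among them all 6 that left out a B1b library. Atf3 stood at -0.82 with overlapping groups (edgeR adjusted p = 0.0126), a call lost when wild-type B1b replicate 1 or 3 was left out (edgeR adjusted p = 0.0564 and 0.0571). Fos at -0.18 and Fosb at 0.26 did not differ beyond the spread, with 95% intervals from -0.74 to 0.37 and from -0.43 to 0.95. Egr2 stood at -0.63 (edgeR adjusted p = 0.0992) and passed under size factors as DESeq2 computes them (-0.80, edgeR adjusted p = 0.0450).

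The promoters of Fosl2, Jun, Junb, Jund, Egr2 and Atf3 were searched in the same way as those of Fosb and Fos. Egr1 and Egr3 had no entry. Those of Junb and Egr2 are shown, Junb as the third gene whose B1b groups did not overlap and Egr2 as the factor whose upstream window held a CArG box. The windows are chr8:84978749-84978998 on the minus strand for Junb and chr10:67537619-67537868 on the plus strand for Egr2, the latter before 1 of its 5 annotated start sites. Capitals mark TGACG in either orientation and, in Egr2, the CArG box.
Junb: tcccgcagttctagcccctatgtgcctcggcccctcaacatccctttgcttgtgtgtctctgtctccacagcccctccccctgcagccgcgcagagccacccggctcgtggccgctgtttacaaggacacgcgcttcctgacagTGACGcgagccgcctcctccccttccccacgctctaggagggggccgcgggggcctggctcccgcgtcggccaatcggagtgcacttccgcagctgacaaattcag
Egr2: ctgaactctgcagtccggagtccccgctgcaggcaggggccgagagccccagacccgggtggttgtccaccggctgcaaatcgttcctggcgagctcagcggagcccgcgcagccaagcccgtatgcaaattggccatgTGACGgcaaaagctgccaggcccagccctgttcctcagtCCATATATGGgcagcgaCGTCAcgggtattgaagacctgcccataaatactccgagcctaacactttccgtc
Junb held TGACG at -106 to -102. Egr2 held TGACG at -111 to -107, the CArG box at -72 to -63 and TGACG on the other strand at -55 to -51. CArG boxes were present before 4 of the 5 Egr2 start sites. Numbered by position, start sites 3, 4 and 5 have overlapping windows that share 1 box, CCATATATGG. Start site 2 has another, CCTTTTTTGG. The window of Fosl2 held an EGR element and that of Atf3 held TGACG on the minus strand, while those of Jun and Jund held none of the elements searched, the full cAMP response element TGACGTCA included (1.55% of all windows). Among the 8 genes with a window, TGACG was found for Fos, Fosb, Junb, Egr2 and Atf3.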

How the data were processed

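RNA sequencing of 6 B1b and 10 aorta libraries was read from the deposited table, where the authors give unnormalized whole-number counts by RefSeq transcript. The submitters' processing notes name CASAVA 1.8.2, STAR 2.5.2b and mm10. Not given in the sources used here are the counter, the annotation release and the strand setting. Of 35745 rows, 35440 took a name from RefSeq and 188 from GENCODE, and 117 took none and stayed in library sizes and tests. The row of highest total was kept per gene, which left 24562 entries. No other gene of the table overlapped a member on the annotation.

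Each tissue was fitted with edgeR 4.0.16 in R 4.3.3 (filterByExpr, TMM, robust quasi-likelihood F test), and both together for the interaction and the wild-type tissue contrast. P-values were adjusted over all genes tested by the Benjamini-Hochberg method, with a threshold of 0.05. DESeq2 1.42.0 and limma 3.58.1 (voom) were alternatives. Scripts were tested on simulated counts. Correlations used log2 CPM with a prior count of 2. All members were named, and of each further list the genes past the threshold and the 4 of smallest p could be named, as could the 5 genes most like Fosb (B1b) or Fos (aorta) by Pearson correlation with a mean of at least 5 CPM. Members and lists were chosen with earlier results of these data known.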

Additional observations from a re-analysis of the deposited data

How the results depend on the processing

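Fosb in B1b cells kept its direction and its call in all 7 alternatives and all 6 fits that left out a library. Some aortas held few counts of Egr2 and Egr3, and Egr3 there also moved from -0.53 to -0.17 without wild-type replicate 2, the library with most Egr3 counts. No paired analysis was possible because the titles give no 2 libraries of a tissue the same number across genotypes. The causes of the changes below were not tested.

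In B1b cells the 83 called genes became 327 without the filter on low counts, 11 with counts summed over rows and 197 by DESeq2, and 35 to 103 in fits that left out a library. The 2 called factors became 4 without the filter, and 1 with the row of lowest total, with summed counts, without robust estimation or by limma-voom. Fits that left out a library called 1 to 2. In aortas the 2 called genes became 1 with the row of lowest total or limma-voom, 6 without robust estimation, 204 by DESeq2, 9 by limma-voom with quality weights and 92 without the aortas under 2000000 counts, and 0 to 14 in fits that left out a library. The interaction gave 1 to 7 called genes in such fits, against 3.

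Fosb in aortas, at 0.02, turned to -0.003 without the filter, -0.14 by limma-voom, -0.15 with quality weights and -0.21 without the aortas under 2000000 counts, and ranged from -0.22 to 0.24 with a library left out. Jun in aortas turned to -0.10 without the aortas under 2000000 counts. With a library left out, Jun ranged there from -0.039 to 0.30, Fos from -0.047 to 0.26, Fosl2 from -0.20 to 0.04 and Egr1 from -0.12 to 0.14. In B1b cells Atf3 ranged from -0.39 to 0.019 and Fosl2 from -0.10 to 0.56, and the interaction of Fosl2 from -0.055 to 0.70.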
